A study of Mus musculus with 2 samples.

Results

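The 50 genes described here encode the proteins that copy DNA in S phase: the replicative helicase and its loaders, the polymerases, the clamp and its loader, the enzymes that supply nucleotides, and the cyclins, transcription factors and chromatin proteins that act with them. They were selected by gene symbol, as helicase, polymerase, nucleotide supply and S-phase factors. Of the 50 genes, 49 had a probe set that the platform annotation assigns to 1 gene only, with 106 probe sets among 45037 on the array and 18193 named genes. Chaf1a was not analysed here.

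Transcripts were measured on Affymetrix arrays in dendritic cells grown from the bone marrow of C57BL/6J mice, 1 array from wild-type mice and 1 from mice that lack miR-155 (miR155-/-). Both cultures were grown with GM-CSF at 20 ng/ml for 7 days and then received 10 ng/ml of lipopolysaccharide (LPS), a bacterial cell wall component, so LPS is common to both groups and its own effect was not measured. The sources used here do not give the duration of the LPS treatment, the number and age of the mice or the design of the deleted allele, and the growth protocol calls the cells macrophages where all other labels say dendritic cells. Because each genotype has 1 array, no replicate error exists, no test was made and every difference describes these arrays only.

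Replication starts at origins bound by the origin recognition complex, where CDC6 and CDT1 load the ring of MCM proteins. The ring becomes an active helicase when CDC45 and the GINS complex join it, after which the primase and polymerases alpha, delta and epsilon make new strands, held to the template by the PCNA clamp. Many of these genes are transcribed at the transition from G1 to S phase under E2F transcription factors, so their messenger RNAs mark cells that are about to divide or are dividing. GM-CSF marrow cultures contain dividing precursors as well as differentiated cells that have left the cell cycle. In bulk RNA, fewer cells of a type and less RNA per cell cannot be told apart.

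The regulator that separates the genotypes is a microRNA whose main mature strand pairs with target transcripts through its seed. The RefSeq sequence (GRCm38.p6, chr16:84714143-84714165, plus strand) is shown with the seed, bases 2 to 8, in capitals.
mmu-miR-155-5p: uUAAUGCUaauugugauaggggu

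The deposited intensities were not on one scale: their median was 58.4 on the wild-type and 78.3 on the knockout array. They were quantile normalized, and normalized intensities at or below 67.6, the median of all values, were set to that floor, which was set for this work and does not show detection. All signals below are normalized intensities unless they are called deposited, and all differences are log2 values of knockout minus wild type. Deposited signals of the 18S ribosomal RNA control probe sets ranged from 95.1 to 126 in wild-type cells and from 389 to 582 in knockout cells, and the 3′ to 5′ signal ratio of the actin control was 1.28 and 1.25. Their part in the differences was not tested. The only error that the arrays allow is the disagreement between probe sets of one gene, with an SD of 0.31 over 13856 probe sets of 5163 genes. It was 0.32 over the 66 measured probe sets of the 28 replication genes that had several. Mir155hg, the host transcript of the deleted microRNA, gave 1136 on the wild-type and 159 on the knockout array.

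Markers of the labelled cell type were present on both arrays, and 9 of 10 dendritic cell markers lay above the floor on both. Their sum over all 10 was 54576 on the wild-type and 45202 on the knockout array. Of the 10, 2 were higher in knockout cells (background 51.5% of 11878 measured genes) and 8 lower (background 48.5%). The sum over 6 macrophage markers was 32328 and 33156. Of these, 5 were higher in knockout cells, up to Mrc1 (138 and 288), and Cd14 was lower (10690 and 7911). For 8 measured of 9 markers of cycling myeloid progenitors and granulocytes, the sum was 1289 and 1012, with Cd34 below the floor on both arrays. Of the 8, 1 was higher in knockout cells and 7 lower. B and plasma cell markers (5 measured, all lower in knockout cells, and Cd79a below the floor on both arrays) summed to 1621 and 366. The largest part was Ighm (734 and 142), with 3 of its 8 measured probe sets higher and 5 lower. Mast cell and basophil markers (4 measured, all lower, and Fcer1a below the floor on both arrays) summed to 539 and 219. In both lists, 3 of the measured markers were above the floor in wild-type cells only. All marker sums were taken without the floor. T cell markers (2 of 4 measured, Cd3e and Cd3g below the floor) summed to 201.5 and 254, and Car2 was the only measured erythroid marker (4788 and 2348), with Klf1, Alas2 and Hba-a1 below the floor. The part of these cell types in the differences below was not tested.

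Replication transcripts were higher in knockout cells more often than lower. The median shift was smaller than the SD between probe sets, which describes the spread of single probe sets and is not the error of a median. Of the 49 genes, 46 were measured, that is, above the floor on at least 1 array, and 40 were above it on both. Of those 40, 27 (against a background of 51.8% of 10355 genes) were higher and 13 (background 48.1%) were lower in knockout cells. Their median difference was 0.23, against 0.01 for all genes of this kind. At least 1.5-fold higher were 6 of the 40, where the background was 4.08%, and 1 was at least 1.5-fold lower, where it was 3.56%. None of the 40 reached 2-fold in either direction (background 0.464% higher and 0.541% lower). A difference above the probe set SD was seen upward in 14 of the 40 genes (background 15.2%) and downward in 3 (background 13.4%).

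The remaining 6 measured genes had only 1 array above the floor at the probe set that represents them, the one with the highest mean. This fixes the direction of that probe set, not of the gene. Gins1, Cdc6, Pola1 and E2f2 were above it only in knockout cells, and Mcm10 and Orc1 only in wild-type cells. Pole, the catalytic subunit of polymerase epsilon, Tyms, thymidylate synthase, and Tk1, thymidine kinase, lay at or below the floor on both arrays.

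The split between higher and lower genes depended on the scaling. Over the same 46 genes and probe sets, with no floor, it was 31 higher to 15 lower after quantile normalization, 37 to 9 with centring on the array medians, 40 to 6 with scaling on hybridisation controls and 43 to 3 on the deposited values. Of all measured genes, with a floor at the median in each setting, 51.5% were higher after quantile normalization and 67.7% with centring. It was 74.5% with the controls and 92.9% on the deposited values. Loess scaling, which follows a curve fitted over intensity, left the split at 31 to 15 with the same lower genes. The median of all measured genes was then 0.01. Centring, the controls and the deposited values shift the median of all measured genes by themselves, to 0.14, 0.20 and 0.54. Relative to that median the replication genes lay 0.22 higher after quantile normalization, 0.24 with centring, 0.23 with the controls and 0.22 on the deposited values.

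**Figure D1:**
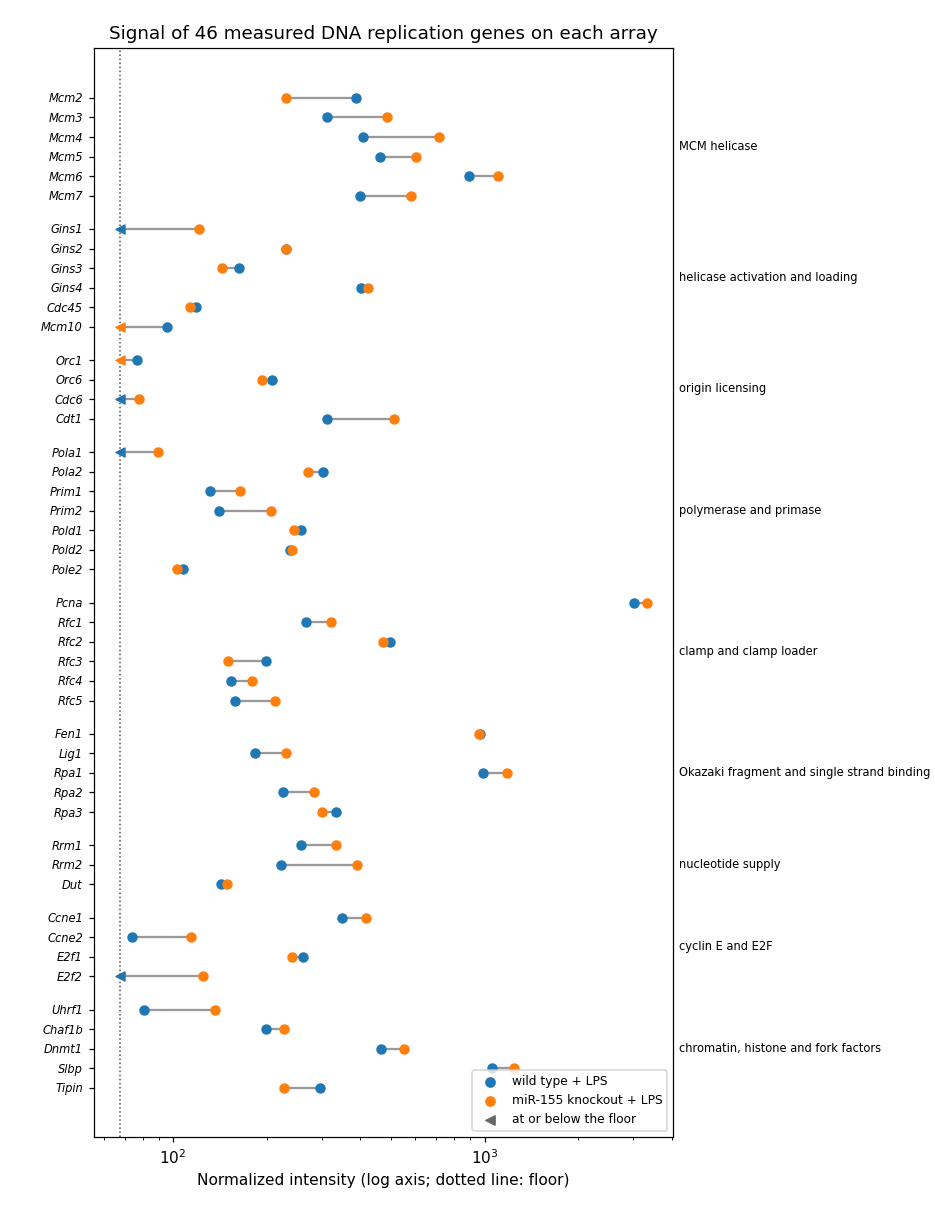
Normalized intensity (log axis) of the 46 measured DNA replication genes, at the probe set with the highest mean, in wild-type (blue) and knockout (orange) cells after LPS. Triangles mark values at or below the floor of 67.6, and each line joins the arrays of 1 gene. The knockout point lies to the right in 31 genes (background 51.5% of all measured genes), among them Mcm3 to Mcm7.

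Helicase genes had higher signals in knockout cells at 14 of the 15 probe sets that were above the floor on both arrays (background 50.8% of 17602 such probe sets). Mcm2 to Mcm7 encode the subunits of the hexameric ring that unwinds the template, and 5 of the 6 were higher in knockout cells at their representative probe set. Mcm4 gave 408 on the wild-type and 716 on the knockout array, a difference of 0.81. Mcm3 had signals of 312 and 487 (0.64), Mcm7 398 and 583 (0.55) and Mcm5 462 and 602 (0.38). Mcm6, at 893 and 1105, had a difference of 0.31, just under the probe set SD.

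The agreement within the helicase extended to its other probe sets. All 13 probe sets of Mcm3, Mcm4, Mcm5, Mcm6 and Mcm7 that were above the floor on both arrays were higher in knockout cells, with differences from 0.17 to 0.81 and a median of 0.40. A further pair of Mcm3 probe sets was above the floor in knockout cells only, which fixes the direction. The lowest belonged to Mcm4, whose second probe set read 463 and 519 and so did not repeat the size of the first.

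Mcm2 was the exception, and its probe sets contradicted each other. The brighter one, 1434079_s_at, gave 386 for wild type and 230.3 for knockout, a difference of -0.75 that was the lowest of the 40 genes above the floor on both arrays. The other, 1448777_at, gave 167 and 227 (0.44), in the range of the other MCM genes. On the deposited scale, the first read 316 and 279.8 and the second 139 and 275, so the contradiction was present before normalization. The direction of Mcm2 is therefore uncertain.

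Several of the larger differences came from probe sets whose names end in _x_at or _s_at, a class that can share probes with other transcripts. Without them, the difference of Mcm4 was 0.17, that of Rrm2 0.37, that of Mcm3 0.38 and that of Mcm2 0.44. The number of genes at least 1.5-fold higher was then 5 in place of 8 among all those measured (background 4.57% in the main setting and 4.41% in this one), and 0 in place of 1 were at least 1.5-fold lower (background 4.1%). The median over the list was 0.23 in both cases.

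Genes that turn the loaded ring into a working helicase did not move together. Gins1, a subunit of the GINS complex, was below the floor in wild-type cells and had a signal of 121 in knockout cells, at least 1.79-fold higher. The other subunits showed no such difference: Gins2 read 230.7 and 230.7, Gins3 163 and 144 (-0.19), and Gins4 402 and 424 (0.07). Gins2's second probe set was lower in knockout cells, at 141 and 96.9 (-0.55).

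Cdc45, the factor that joins MCM and GINS, gave discordant readings. Its representative probe set read 119 and 114 (-0.06). The other, 1416575_at, was below the floor in wild-type cells and read 170.3 in knockout cells, at least 2.52-fold higher, and was the only measured replication probe set whose difference or bound passed 2-fold. Averaging both gave 0.64. Mcm10, which acts in helicase activation, read 95.4 in wild-type cells and below the floor in knockout cells (at least 1.41-fold lower), while its second measured probe set passed the floor in the knockout alone (at least 1.13-fold higher).

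Of the 4 origin licensing genes, Cdt1 and Orc6 were above the floor on both arrays. Cdt1, which brings the MCM ring to the origin, had signals of 313 and 513, a difference of 0.72, and its second measured probe set gave 206 and 319.7 (0.63). Cdc6, the partner of Cdt1 in loading, was dim, with 77.9 in knockout cells and a wild-type signal below the floor (at least 1.15-fold higher). Of the origin recognition subunit genes, Orc6 read 208 and 194 (-0.11, but 0.02 with centring on the medians), and Orc1 76.8 in wild-type cells and below the floor in knockout cells (at least 1.14-fold lower).

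Polymerase and primase genes split in direction: of the 6 above the floor on both arrays, 3 were higher and 3 lower in knockout cells. The primase makes the RNA primers; its small subunit gene Prim1 had signals of 131 and 164 (0.32), and its large subunit gene Prim2 had 141 and 207 (0.55). The second measured probe set of each gave 0.06. Pola1, the catalytic subunit of polymerase alpha, read 89.8 in knockout cells and below the floor in wild-type cells (at least 1.33-fold higher), and its accessory subunit gene Pola2 read 303 and 271 (-0.16).

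For polymerase delta, the catalytic subunit gene Pold1 read 259 and 245 (-0.08) and the accessory subunit gene Pold2 238 and 242 (0.02). Pole2, an accessory subunit of polymerase epsilon, read 108 and 103 (-0.07). All 3 differences are well under the probe set SD.

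**Figure D2:**
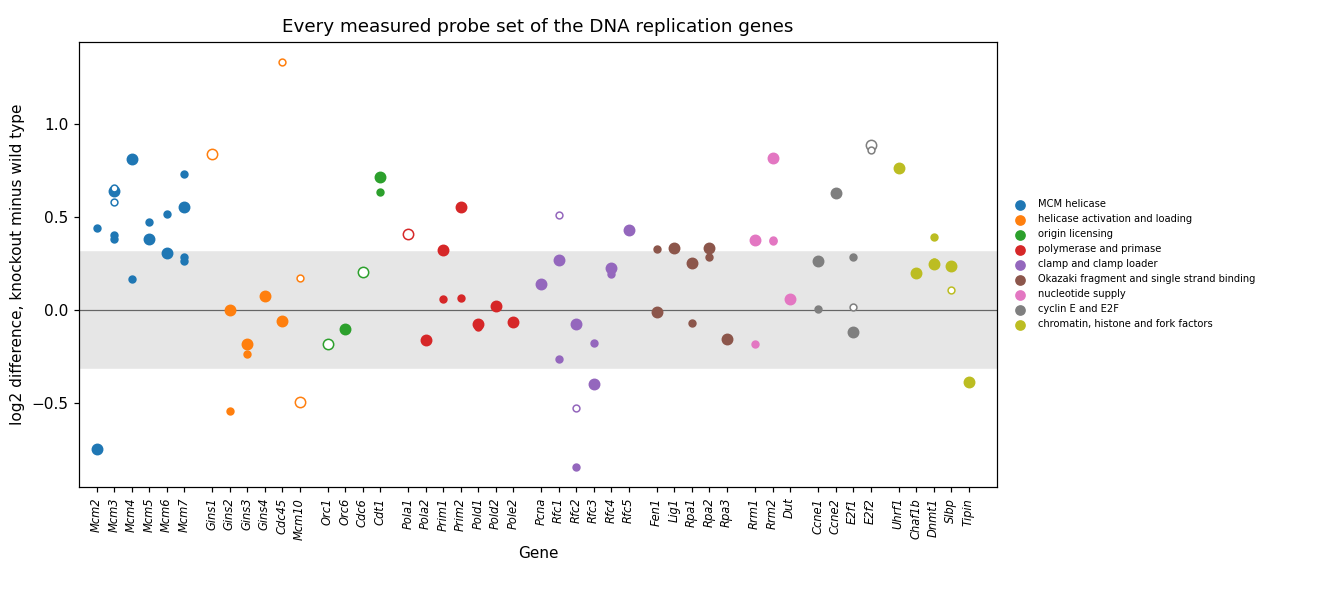
Difference in log2 normalized intensity, knockout minus wild type, for every measured probe set of the 46 genes, coloured by role. Large points are the representative probe set, small points the other probe sets, open points those with 1 array at the floor (lower bounds), and the grey band is the probe set SD of 0.31 on each side of 0. The points of Mcm3 to Mcm7 all lie above 0, and those of Mcm2, Cdc45 and Rfc1 lie on both sides.

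Pcna, the sliding clamp, was bright and nearly equal on the arrays, at 3017 and 3318 (0.14). The genes of its loader, replication factor C, split. Rfc5 had signals of 159 and 213 (0.43), Rfc4 153 and 179 (0.23, with 0.19 at its other probe set) and Rfc1, the large subunit gene, 267 and 321 (0.27), whereas Rfc3 had 198.5 and 150.5 (-0.40).

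Rfc3 was lower at both of its probe sets, the other giving -0.18. Rfc2 read 497 and 471 (-0.08), and its other probe sets, both of the _x_at class, gave -0.84 and at least 1.44-fold lower. Beside the representative, Rfc1 had a probe set at -0.27 and another that was below the floor in wild-type cells (at least 1.42-fold higher). Genes of the loader subunits RFC1 to RFC5 thus pointed in both directions after normalization. The deposited signal of Rfc3 was 164 and 181, a difference of 0.14 where the median of all measured genes was 0.54. On that scale, both _x_at probe sets of Rfc2 were also lower (-0.36 and -0.69), and its representative was higher (0.52).

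Of 5 genes for finishing the lagging strand and for coating exposed template, 3 were higher in knockout cells (background 51.8%). The other 2 were lower (background 48.1%). Lig1, the ligase that joins Okazaki fragments, had signals of 183 and 230.5 (0.33). Fen1, the nuclease that trims their flaps, read 969 and 961 (-0.01) at its brighter probe set and 262 and 329 (0.33) at the other. For the strand-binding complex RPA, Rpa2 read 225 and 283 (0.33, with 0.29 at its other probe set), Rpa1 992 and 1180.0 (0.25, with -0.07 at its other probe set) and Rpa3 334 and 300.5 (-0.15).

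Ribonucleotide reductase, which makes deoxynucleotides, was represented by both of its S-phase subunits. Rrm2, the small subunit gene, had signals of 222 and 391, a difference of 0.82, the highest of the 40 genes measured on both arrays. Its other probe sets agreed in direction but not in size, at 0.37 each. Rrm1, the large subunit gene, read 257 and 333 (0.38) at the representative probe set and 309.7 and 272 (-0.19) at the other. Dut, which removes dUTP, had signals of 143 and 149 (0.06).

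Among the regulators of S-phase entry, Ccne2 and E2f2 differed more than Ccne1 and E2f1. Ccne2, a cyclin E gene, was dim, with signals of 74.2 and 114 (0.62), while the other cyclin E gene, Ccne1, read 348 and 418 (0.26) and, at its second probe set, 182 and 183. E2f2, an activator of replication genes, was below the floor in wild-type cells at both probe sets and read 124.9 and 123 in knockout cells, at least 1.85-fold and 1.81-fold higher. E2f1 read 262 and 241 (-0.12), with 0.28 and 0.01 at its other measured probe sets.

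Of the chromatin and fork factors, Uhrf1 differed most. Uhrf1, which recognises newly copied DNA that is methylated on the old strand, had signals of 80.7 and 137 (0.76). Dnmt1, the methyltransferase that it guides, read 464 and 550.1 (0.24), and all 3 of its probe sets were higher, by 0.24 to 0.39. Slbp, which binds histone messenger RNAs, read 1057 and 1244 (0.23), and Chaf1b, a subunit of the CAF-1 histone chaperone, 199 and 228 (0.20). Tipin, a fork protection factor, was lower, at 297 and 227 (-0.39). Its deposited signal was 243 and 275, a difference of 0.18 where the median of all measured genes was 0.54.

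**Figure D3:**
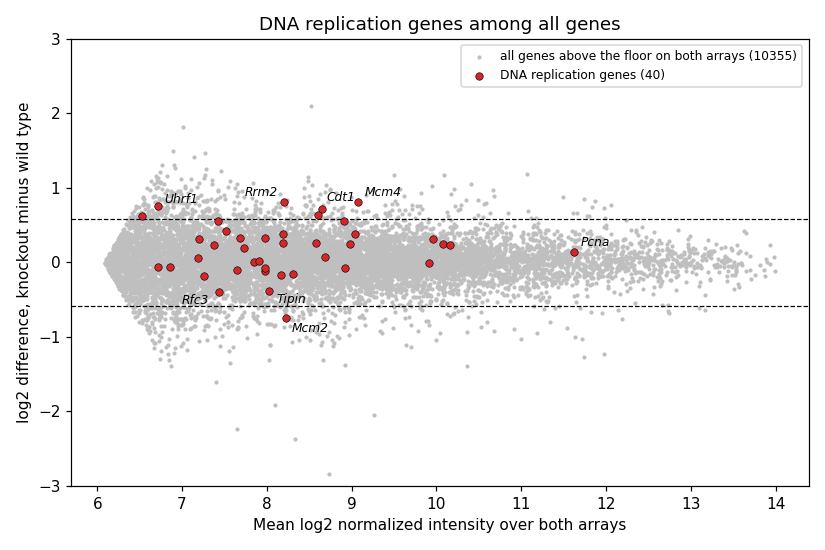
Difference against mean log2 normalized intensity for the 10355 genes above the floor on both arrays (grey) and the 40 replication genes among them (red); dashed lines mark 1.5-fold. Most red points lie in the upper part of the grey cloud, 6 above the upper line and Mcm2 below the lower one.

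Counts over all probe sets do not depend on which one was chosen to represent a gene. Of the 24 replication genes with several probe sets above the floor on both arrays, 13 had all of these higher in knockout cells (background 24.6% of 4410 genes), 4 had all of them lower (background 22.7%) and 7 had both. Those with all higher were Mcm3 to Mcm7, Cdt1, Prim1, Prim2, Rfc4, Rpa2, Rrm2, Ccne1 and Dnmt1. Those with all lower were Gins3, Pold1, Rfc2 and Rfc3. Of the 84 measured probe sets, 69 were above the floor on both arrays, and of these 48 were higher (background 50.8%) and 21 lower (background 49.1%). Their median was 0.24. Probe sets of one gene share their source RNA and partly their sequence, so they are not replicates.

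Chromosome 16, which carries the deleted microRNA locus, also holds 4 of the genes, per the RefSeq gene table. Their representative differences were 0.81 for Mcm4, 0.23 for Rfc4, 0.20 for Chaf1b and -0.06 for Cdc45. The other genes with differences of 0.6 or more, such as Rrm2 (chromosome 12), Uhrf1 (chromosome 17), Cdt1 (chromosome 8) and Mcm3 (chromosome 1), lie elsewhere.

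The promoters of the genes were searched for the E2F motif and for other promoter motifs. A set of the promoters is shown because E2F sites are a known feature of replication promoters. RefSeq windows of 300 bases that end 50 bases after the start of transcription (GRCm38.p6) were given for 41 of the 50 genes. The E2F motif TTTNGCGC, on either strand, was found in 13 of the 41, or 31.7%, against 1.57% of 27025 genes with a window. Each of the 13 held one of the stricter forms TTTCGCGC or TTTGGCGC, which are cases of the same motif and which 0.929% of all genes held. Where both arrays were above the floor, the motif was in 10 of 33 replication genes (30.3%) and in 2.85% of 8456 genes.

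The other motifs were found in larger shares of all genes. Among all genes with a window, CCAAT was in 63.4% of replication genes and 41.1% of all, the SP site GGGCGG in 80.5% and 38.2%, and the CHR element, searched as TTTGAA or TTCGAA, in 22.0% and 21.7%. Where both arrays were above the floor, GGGCGG was in 78.8% of replication genes and 68.2% of all, and CCAAT in 63.6% and 42.3%. The CHR element was there in 24.2% of replication genes (8 of 33) and 16.3% of all. Motifs were searched one by one on both strands, and their matches may overlap.

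The E2F motif was found among both higher and lower genes. The 10 genes with it and above the floor on both arrays had differences from -0.40 to 0.76, with 8 higher and 2 lower and a median of 0.36. The 23 without it had differences from -0.75 to 0.82, with 14 higher and 9 lower and a median of 0.14. The range of the genes with the motif lay inside that of the genes without it, and the difference between these groups was not tested. The windows below are those of the genes with the highest and the lowest difference with the motif, Uhrf1 (0.76) and Rfc3 (-0.40), and without it, Rrm2 (0.82) and Mcm2 (-0.75, contradicted by its other probe set). Capitals mark the match, which starts at position -185 in Uhrf1 and at position -10 in Rfc3, counted from the start of transcription. Their places in GRCm38.p6 are chr17:56304063-56304362 on the plus strand for Uhrf1, chr5:151651159-151651458 on the minus strand for Rfc3, chr12:24708004-24708303 on the plus strand for Rrm2 and chr6:88898731-88899030 on the minus strand for Mcm2.
Uhrf1 promoter: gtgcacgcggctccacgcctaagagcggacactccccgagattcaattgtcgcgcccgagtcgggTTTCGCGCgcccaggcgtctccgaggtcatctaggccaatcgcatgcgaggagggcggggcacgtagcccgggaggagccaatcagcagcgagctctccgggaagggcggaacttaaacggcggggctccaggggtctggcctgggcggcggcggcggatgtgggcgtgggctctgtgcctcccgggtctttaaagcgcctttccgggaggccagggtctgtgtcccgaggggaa
Rfc3 promoter: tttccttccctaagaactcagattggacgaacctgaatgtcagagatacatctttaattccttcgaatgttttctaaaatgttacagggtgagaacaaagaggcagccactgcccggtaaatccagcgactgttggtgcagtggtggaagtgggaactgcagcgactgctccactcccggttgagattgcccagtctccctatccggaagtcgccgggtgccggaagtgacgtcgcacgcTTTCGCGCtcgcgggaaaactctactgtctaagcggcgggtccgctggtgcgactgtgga
Rrm2 promoter: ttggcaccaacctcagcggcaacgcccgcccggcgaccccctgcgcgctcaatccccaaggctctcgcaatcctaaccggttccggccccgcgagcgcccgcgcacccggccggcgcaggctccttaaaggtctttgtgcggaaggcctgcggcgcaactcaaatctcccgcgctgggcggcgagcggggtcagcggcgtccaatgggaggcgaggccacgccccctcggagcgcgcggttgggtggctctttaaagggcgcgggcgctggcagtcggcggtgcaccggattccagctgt
Mcm2 promoter: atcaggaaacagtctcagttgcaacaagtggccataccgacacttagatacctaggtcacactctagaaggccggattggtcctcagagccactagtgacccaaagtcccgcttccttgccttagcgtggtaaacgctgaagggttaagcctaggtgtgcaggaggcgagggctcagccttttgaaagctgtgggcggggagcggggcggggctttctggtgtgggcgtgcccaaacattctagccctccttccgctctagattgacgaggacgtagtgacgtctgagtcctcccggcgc

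Lists of related genes outside the 50 had smaller medians, except that with the floor at the 75th percentile those of fork checkpoint and mismatch repair (0.22) and mitosis (0.26) were above that of the replication genes (0.19). Of 31 measured genes of the wider replication machinery (background 51.5% higher and 48.5% lower over all measured genes), 19 were higher in knockout cells and 12 lower. Their median was 0.11. Highest were Nasp, a histone chaperone gene, at 186 and 288 (0.63), Rnaseh2c, a subunit of the enzyme that removes RNA from DNA, at 249 and 369.9 (0.57, but -0.10 without _x_at and _s_at probe sets), and Gmnn, whose product geminin inhibits CDT1, at 338 and 486 (0.52). Lowest were Donson (314 and 238, -0.40), Mtbp (161 and 122, -0.40) and Atad5, which unloads the clamp (100.4 and 80.7, -0.32).

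Of 17 measured fork checkpoint and mismatch repair genes, 13 were above the floor on both arrays. Of these, 11 had differences above 0 (background 51.8% of 10355 genes) and 2 below it (background 48.1%), with a median of 0.13. Of the other 4, Fancd2, Fanci and Atrip were above the floor in wild-type cells only and Clspn in knockout cells only. Topbp1, an activator of the checkpoint kinase ATR, had signals of 230.2 and 389 (0.76), Msh6, which recognises mismatches, 112 and 167 (0.58), and Timeless, the partner of Tipin, 144 and 209.5 (0.54, but 0.06 when its probe sets were averaged). At the lower end were Rad1 (102 and 84.7, -0.28), Pms2 (101 and 99.4, -0.03) and Hus1 (348 and 349, 0.00).

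Regulators of the E2F pathway and of G1 had no common direction: 11 were higher and 15 lower of 26 measured (1 of them above the floor in wild-type cells only), with a median of -0.06 that turned to 0.11 with centring on the medians, 0.18 with the hybridisation controls and 0.54 on the deposited values. E2f6, a repressor of the E2F family, had signals of 130.0 and 278 (1.09), Myc 89.5 and 141 (0.66) and Tfdp2, a partner of E2F proteins, 112 and 166 (0.57). Among the lowest were genes of G1 kinase inhibitors, Cdkn2c with signals of 189 and 93.3 (-1.02) and Cdkn2b with 921 and 582 (-0.66). Ccnd2, a cyclin D gene, read 8664 and 5423 (-0.68), with all 7 of its measured probe sets lower.

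Nucleotide synthesis genes outside the list were higher in 8 and lower in 11 of 19 measured cases, with a median of -0.02 that also turned positive with centring (0.12), with the controls (0.19) and on the deposited values (0.54), as well as with a floor at the 75th percentile (0.05), with averaged probe sets (0.01) and without _x_at and _s_at probe sets (0.05). Impdh1, of guanine nucleotide synthesis, read 214 and 345 (0.68), the deoxycytidine kinase gene Dck 2484 and 3949 (0.67) and the thymidylate kinase gene Dtymk 265 and 312 (0.24). Shmt1, a serine hydroxymethyltransferase of the folate cycle, was the lowest at 175 and 74.4 (-1.23), followed by Umps (227 and 190.4, -0.25) and Ctps (145 and 125, -0.21).

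Mitosis genes, which act later in the cell cycle, were also higher more often than lower. Of 20 measured, 16 were above the floor on both arrays. Of these, 10 were higher (background 51.8% of 10355 genes) and 6 lower (background 48.1%), with a median of 0.09. Cdk1, the mitotic kinase, had signals of 186 and 277 (0.58), Aurkb 82.7 and 123 (0.57) and Ccnb2 102.5 and 130.4 (0.35). In contrast, Cdc20, an activator of mitotic exit, had 172 and 96.6 (-0.83), the survivin gene Birc5 130.0 and 78.5 (-0.73), and Tpx2, a spindle factor, 183 and 131 (-0.48). Differences among these lists were not tested.

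**Figure D4:**
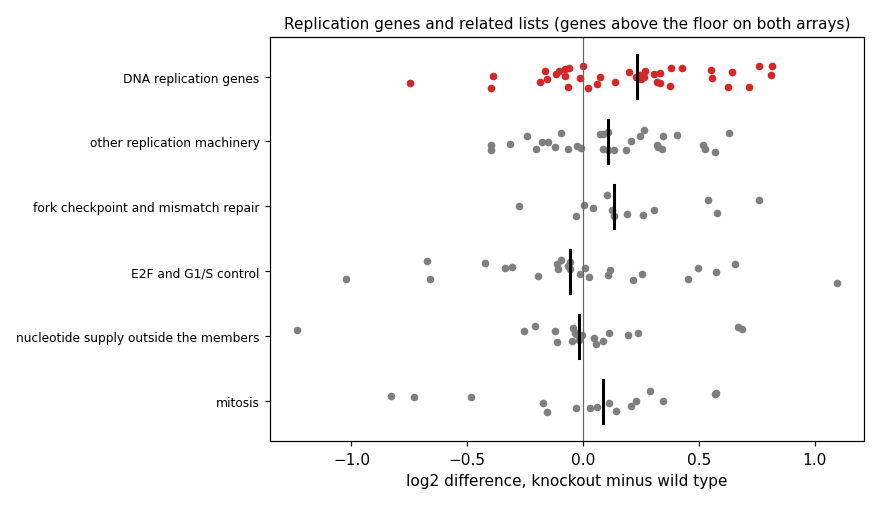
Difference in log2 normalized intensity, knockout minus wild type, of each gene above the floor on both arrays in the replication list (red) and in 5 related lists (grey), with vertical bars at the medians. The replication genes have a median of 0.23 and the other lists medians from -0.06 to 0.13, and all the lists overlap.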

How the data were processed

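The authors deposited 1 table of linear intensities, positive and not on a common scale, for 45101 probe sets on 1 array per genotype; per the labels' protocols, Trizol-extracted total RNA (6 ug) gave biotinylated cRNA for an Affymetrix array. The sources used here do not say how probes were summarised or whether arrays were scaled.

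With Python 3.11.15, numpy 2.4.6, pandas 2.3.3 and statsmodels 0.14.6, the 64 control probe sets were left out, the log2 intensities of the other 45037 were quantile normalized (the deposited medians differed by 34.1%), and values under the median of all (67.6) were set to it. This forces both arrays to the same distribution, so a global change would be lost. Genes on several probe sets were read at the one with the highest mean. Where 1 array was at the floor, a fold is a lower bound. Probe sets naming several genes (932) were left out, as was one for Tyms and its pseudogene. Steps were tested on simulated data. No test between genotypes was possible, and the number of arrays limits the precision. All replication genes are given; of each related list, the 3 highest and 3 lowest genes above the floor on both arrays are named. The members, lists and rules were chosen with earlier results of these data known. The alternatives were 4 other scalings, 2 other floors and 2 other probe set rules.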

Additional observations from a re-analysis of the deposited data

How the results depend on the processing

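The median difference of the replication genes stayed above 0 under each of 8 other processing choices, at 0.17 to 0.44 apart from the deposited values without scaling, where it was 0.76 and the median of all measured genes was 0.54. Relative to that median it was 0.17 to 0.24 in all settings, a comparison added after seeing the data, as was the restriction to genes above the floor on both arrays, which gave 0.23. On deposited values with a floor at their own median, Pole entered the measured genes and Orc1 left. Lower there were 2 genes (Mcm2 and Mcm10, and with no floor also Orc1), against 7.14% of all measured genes. There, 28 were at least 1.5-fold higher (43.5% of all measured genes), 0 at least 1.5-fold lower (0.498%) and 10 past 2-fold (7.19%). The medians of the related lists were then 0.67 (other replication machinery), 0.62 (fork checkpoint and mismatch repair) and 0.55 (mitosis), and those of E2F and G1/S control (0.54) and of nucleotide supply outside the list (0.54) reversed. These changes follow from the shift that the scaling leaves in.

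With scaling on hybridisation controls, 6 genes were lower (25.5% of all measured genes), 13 at least 1.5-fold higher (10.8%), 0 at least 1.5-fold lower (2.19%) and 2 past 2-fold (1.67%). With centring on the medians, 9 were lower (32.3%). With the floor at the 75th percentile only 28 genes were measured, 20 higher (52.7% of all measured genes) and 8 lower (47.2%). Of these, 4 were at least 1.5-fold higher (2.1%). Without a floor, 4 of 49 were at least 1.5-fold lower (13.5% of all genes) and 3 past 2-fold (14.2%). Without _x_at and _s_at probe sets, 5 were at least 1.5-fold higher (4.41%) and 0 lower (4.16%), and the difference of Mcm2 reversed to 0.44. With averaged probe sets, 0 were at least 1.5-fold lower (3.6%). Over the settings that centre the arrays, 30 of the 46 measured genes stayed above 0, 8 below it and 8 crossed it. Scaling on hybridisation controls is not among these settings. With it, Pola2, Pole2 and Rpa3, which are among the 8 below 0, were higher in knockout cells. Dim genes near the floor have the least certain differences. No paired analysis was possible because each genotype has 1 array.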
